A study of Bos taurus with 16 samples.

Results

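Subclinical endometritis (SE) is an inflamed uterine lining in a cow that shows no discharge or illness, and the comparison described here sets SE against healthy endometrium (HE) on day 7 of the cycle, when embryos were flushed from the uterus. The arrays were chosen by their labels alone: 3 SE pools and 2 HE pools of endometrium brushed just before flushing, 5 of the 16 arrays of the series. Per the labels, 49 cows of the species Bos taurus were superovulated and brushed 2 h before insemination (day 0) and again on day 7. A cow counted as HE when polymorphonuclear cells (PMN, chiefly neutrophils) were at 0 in the brush sample and as SE when any were found, and brush samples of cows with the same status on that day were pooled. The cows of both groups had therefore been superovulated and inseminated, and no untreated group was analysed here. The number of cows in a pool, their age, and whether 1 cow entered pools of both days are not given in the sources used here. The extraction protocol speaks of 3 pools per status and day; 2 day 7 HE pools were analysed here. Day 0 endometrium, 3 HE and 3 SE pools, entered the fit for its estimate of the spread and served for comparison.

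On day 7 the bovine uterus is under progesterone from the corpus luteum. The hormone turns the lining from the proliferative, fluid state of oestrus to a secretory one that feeds the free-floating blastocyst with lipids, amino acids and glucose. The luminal and glandular epithelium is also the first barrier to bacteria. It senses them through Toll-like receptors, releases chemokines that draw neutrophils and makes antimicrobial peptides, while adhesion molecules and antigen-presenting proteins govern the entry and activation of other leukocytes. A cytobrush collects mostly the surface epithelium, with variable numbers of stromal and immune cells.

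Signals were summarised per probe set by GCRMA in log2 units, of which 1 is a 2-fold difference. The array medians ran from 4.19 to 4.28 over the 5 day 7 pools, and 12303 to 12471 probe sets per array lay above a log2 value of 4. The mean correlation of an array with the others of its day was 0.975 to 0.978, so by that measure no day 7 array lay apart. Of 24016 probe sets that are not controls, 12680 had a log2 value above 4 on at least 2 of the 5 arrays and were tested, and 8221 of them carried exactly 1 symbol, for 6530 genes. The epithelial identity of the material was plain in EPCAM, a surface protein of epithelial cells, which lay between 13.19 and 13.63 in all 5 pools. Of the markers named on the array, 18 of 21 epithelial, 14 of 21 stromal, 12 of 15 macrophage and dendritic cell, 15 of 27 lymphocyte and plasma cell, 9 of 26 neutrophil and 2 of 16 endothelial ones passed the filter, so transcripts of other cell types were present as well. The pools are samples of cows, so every p-value sets a difference against the spread between pools. That spread was estimated over all 11 endometrium arrays, day 0 included. In such bulk material fewer cells of a type and less RNA per cell cannot be told apart.

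On day 7 no transcript separated SE from HE past the threshold. limma's moderated test, adjusted by Benjamini and Hochberg over the 12680 probe sets with a threshold of 0.05, called 0 (0% of those tested). The smallest adjusted p was 0.130. At an unadjusted p under 0.05 there were 477 probe sets, 3.76% of those tested, where chance would give 634. Of these, 210 (1.66%) were higher and 267 (2.11%) lower in SE; with 1 probe set a gene they came to 189 of 6530 genes (2.89%). With no filter on low values 10 of 24016 probe sets passed (0.0416%), 4 of them among those kept here. With 3 pools against 2 an exact permutation test of a single transcript, its one-sided p doubled, cannot go below 0.2. The gene values that follow are therefore given as levels and differences, not as changes. Every SE pool lay above every HE pool for 984 probe sets (7.76%) and below for 1068 (8.42%), of which 40 and 22 were kept through the arrays of the higher group alone. With 1 probe set a gene, these shares were 622 of 6530 genes above (9.53%) and 371 below (5.68%). The means of 3701 genes (56.7%) were higher in SE and those of 2829 (43.3%) lower, with a median difference of 0.03. The 2 probe sets of smallest p have no gene named here. They differed by -1.20 and -1.34 (limma adjusted p = 0.130 each) and lay lower in every SE pool. The shares of all genes are the background against which the gene groups are read.

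**Figure D1:**
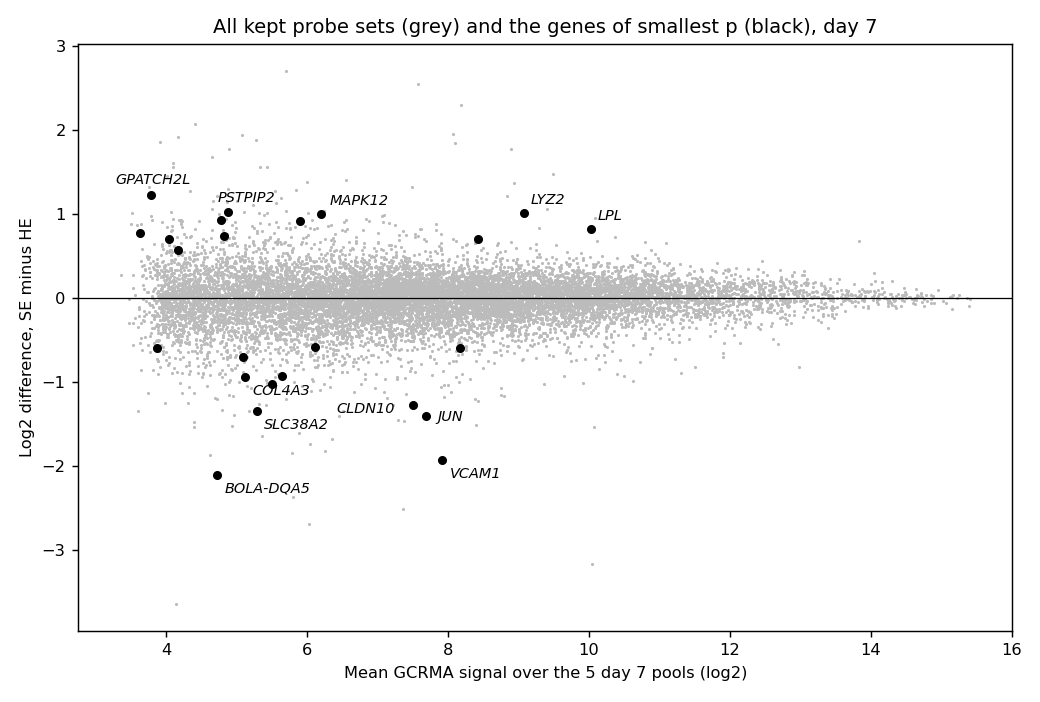
Each grey point is 1 of the 12680 kept probe sets, with its mean GCRMA signal over the 5 day 7 pools on the x axis and the log2 difference SE minus HE on the y axis; black points are the genes of smallest p in each direction. BOLA-DQA5 (-2.10) and VCAM1 (-1.93) lie lowest among the black points and GPATCH2L (1.23) highest, while grey points at larger differences have a larger p or no single gene symbol.

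The genes of smallest p with lower means in SE included molecules that bring leukocytes into contact with other cells. VCAM1, the adhesion molecule that binds integrin on lymphocytes and monocytes, stood at 9.29 and 8.87 in the HE pools and at 7.70, 6.53 and 7.23 in the SE pools. All SE pools lay below both HE pools, and the lowest HE and the highest SE pool were over 1 log2 unit apart. The SE mean of 7.15 ± 0.59 (SD, n = 3) was 3.81-fold below the HE mean of 9.08 ± 0.30 (SD, n = 2), a log2 difference of -1.93 (standard error 0.30, limma adjusted p = 0.138). On day 0 VCAM1 was near the floor of the array in both groups, at 1.98 to 2.24 in HE and 1.99 to 2.46 in SE. Its high level therefore belonged to day 7 endometrium of either status. The difference between the status contrasts of the 2 days was -2.06 (adjusted p = 0.539), so a change of the contrast with the day was not shown.

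BOLA-DQA5 encodes an alpha chain of the class II molecules that present peptides to helper T cells, in a family whose gene number varies between cattle haplotypes. Its signal was 5.60 and 6.38 in HE and 3.67, 3.99 and 4.01 in SE. The SE pools were thus at the level of day 0, where all 6 pools of both groups lay between 3.10 and 4.01, and only the day 7 HE pools stood above it. The difference was -2.10 (standard error 0.32, limma adjusted p = 0.138), 4.29-fold. The rest of the class II list did not share this size. Of 11 measured members of 24, 3 had higher and 8 lower means in SE, with a median of -0.20 and 0 past the threshold. BOLA-DRA and BOLA-DRB3, the chains of the main class II molecule DR, differed by -0.23 and -0.30 and their pools overlapped. Without SE pool 3 these became 0.13 and 0.10, and the list median became 0.10. A second, less bright probe set of BOLA-DRB3 gave -0.86 (standard error 0.86). The related alpha chain BOLA-DQA1 had a higher mean in SE with both of its probe sets (0.42 and 0.49).

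COL4A3, a collagen chain of specialised basement membranes, read 5.85 and 5.52 in HE and 4.81, 5.03 and 4.39 in SE (difference -0.94, standard error 0.19, limma adjusted p = 0.418). Like VCAM1 it was a day 7 transcript, since none of the 6 day 0 pools exceeded 2.26. The SD of COL4A3 was 0.03 in both groups on day 0, and 0.24 in HE and 0.32 in SE on day 7. VCAM1, too, varied less on day 0 (SD 0.15 in HE and 0.24 in SE). Their standard errors draw in part on this narrow day 0 spread. JUN, a subunit of the transcription factor AP-1, read 8.86 and 8.21 in HE and 6.99, 7.45 and 6.95 in SE. Its difference was -1.40 (standard error 0.28, limma adjusted p = 0.418), and all 4 kept probe sets of the gene had lower means in SE. CLDN10, a tight junction protein that was above 12.9 in every day 0 pool, stood on day 7 at 8.79 and 7.74 in HE and at 6.98, 6.39 and 7.59 in SE. Its status difference on day 7 was -1.28 (limma adjusted p = 0.999), and the lowest HE pool was 0.15 above the highest SE pool, so the separation was narrow.

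The other genes of the 12 smallest p with lower means in SE cover transport, adhesion and secretion. The chloride channel gene CFTR differed by -0.71 (limma adjusted p = 0.428), but its other probe set, the brighter one, differed by 0.11, so the probe sets disagree. SLC38A2, which carries small neutral amino acids into cells, differed by -1.35, the receptor LRP12 by -1.02 and the secreted galectin-binding glycoprotein LGALS3BP by -0.92. PLXNB2, a semaphorin receptor, and ADAM9, a membrane metalloproteinase, differed by -0.60 each, and BCNT2 by -0.58. These values are of the probe set of smallest p. The brightest probe set gave smaller differences of the same sign for SLC38A2 (-0.24), LGALS3BP (-0.62), PLXNB2 (-0.25), ADAM9 (-0.20) and BCNT2 (-0.07). By the probe set of smallest p, every one of these genes had all SE pools below all HE pools, as had the 5 described before. They were picked by small p on these same arrays, so this separation goes with the choice and is no further result. For ADAM9 only HE pools exceeded the filter, so that its probe set was kept through the group in which it is high. SLC38A2 and ADAM9 were also lower in every SE pool on day 0, by mean differences of -0.997 and -0.63.

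PSTPIP2 had the smallest p of the genes with higher means in SE. It encodes an adaptor of the cytoskeleton that is made mainly in cells of the myeloid line and is known in mice as a brake on interleukin-1-driven inflammation. Its signal was 4.39 and 4.15 in HE and 5.39, 5.24 and 5.23 in SE, a difference of 1.02 (standard error 0.14, limma adjusted p = 0.132) or 2.02-fold. The day 0 pools were ordered alike, at 3.19 to 3.21 in HE and 3.84 to 4.11 in SE (difference 0.76). The SD of PSTPIP2 was 0.0085 in HE and 0.14 in SE on day 0, and 0.18 in HE and 0.09 in SE on day 7. Its standard error draws in part on the narrow spread of the day 0 HE pools. The days share no array, and the difference between their contrasts was 0.26 (adjusted p = 1.00).

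LYZ2, a lysozyme that breaks bacterial cell walls, showed the same order on both days. On day 7 it read 8.64 and 8.30 in HE and 9.68, 9.73 and 9.02 in SE, a difference of 1.01 (standard error 0.22, limma adjusted p = 0.531). On day 0 the HE pools lay between 7.01 and 7.34 and the SE pools between 8.45 and 8.46, a difference of 1.34. The SD of LYZ2 was 0.19 in HE and 0.006 in SE on day 0, and 0.24 in HE and 0.40 in SE on day 7. Its standard error, too, draws in part on the narrow day 0 spread. Of its 4 kept probe sets 3 had higher means in SE on day 7 and 1 a lower mean (-0.16); sequence shared within the lysozyme family was not examined here.

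MAPK12, a p38 kinase of the stress-activated family, read 5.60 in both HE pools and 6.48, 6.29 and 7.02 in SE. The difference was 1.00 (standard error 0.21, limma adjusted p = 0.428), and a second probe set gave 1.10. On day 0 it was near the floor, between 2.12 and 2.44, in all pools. Its SD was 0.18 in HE and 0.02 in SE on day 0, and 0.003 in HE and 0.38 in SE on day 7. The remaining genes with higher means encode proteins of varied roles. They were GPATCH2L (1.23, limma adjusted p = 0.213), the nuclear pore protein NUP42 (0.70), the lysosome-related organelle subunit DTNBP1 (0.73), PIGH of glycolipid anchor synthesis (0.92), the zinc finger gene ZNF821 (0.93), the neuropeptide spexin, SPX (0.78), the GTP-binding protein gene GNL1 (0.57), the cell cycle gene CINP (0.71) and LPL (0.82). GPATCH2L, NUP42, SPX and GNL1 exceeded the filter in SE pools alone. Probe sets disagreed for ZNF821 (the other at -0.08) and GNL1 (1 of 3 at -0.19). The SD of ZNF821 was 0.04 in both groups on day 0, and 0.15 in HE and 0.40 in SE on day 7.

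**Figure D2:**
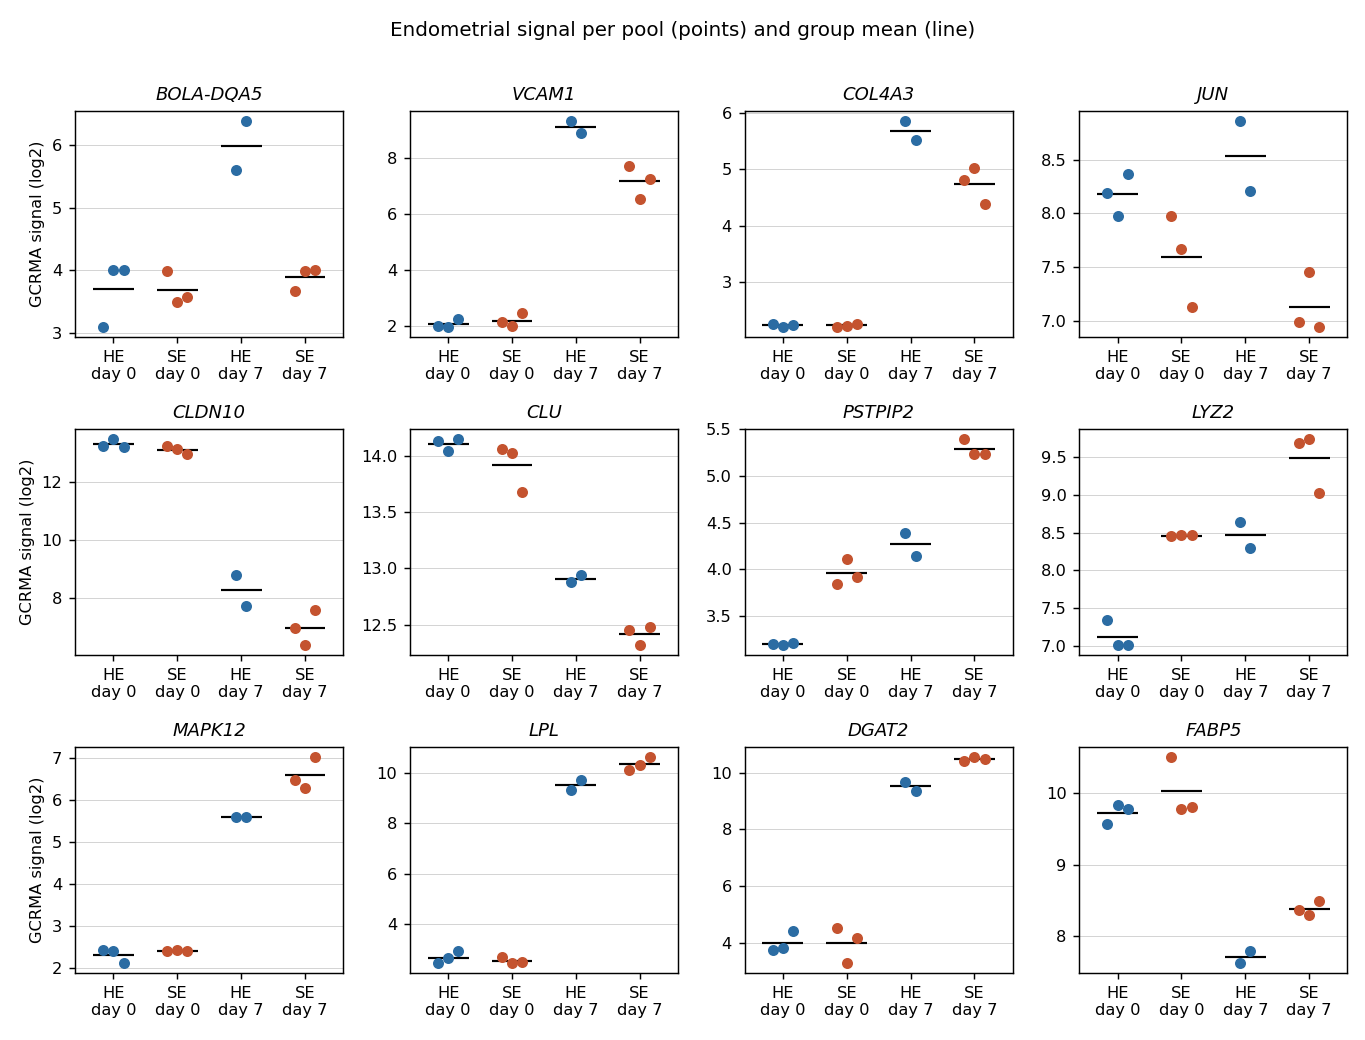
GCRMA signal on the log2 scale (y axis, scaled per gene) of 12 genes in each endometrium pool, with blue points for HE, red points for SE and a line at the group mean, for day 0 and day 7. On day 7 the SE pools lie below the HE pools for BOLA-DQA5, VCAM1, COL4A3, JUN, CLDN10 and CLU and above them for the other 6 genes, while VCAM1, COL4A3, MAPK12, LPL and DGAT2 sit near the floor or far lower in all day 0 pools.

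In the list of luteal and progesterone-responsive genes, LPL, DGAT2, FABP5 and SERPINA14 had every SE pool above both HE pools, none past the test. LPL, lipoprotein lipase, which frees fatty acids from circulating lipoproteins, read 9.32 and 9.75 in HE and 10.11, 10.31 and 10.63 in SE (difference 0.82, limma adjusted p = 0.937). It had been between 2.45 and 2.92 in all day 0 pools. DGAT2, which joins fatty acids into triglyceride, read 9.68 and 9.35 in HE and 10.41, 10.54 and 10.46 in SE (difference 0.96), and FABP5, a carrier of fatty acids in the cell, 7.62 and 7.80 against 8.36, 8.30 and 8.49 (difference 0.68). FABP5 was higher on day 0, at 9.57 or more in every pool, while DGAT2 was lower, at 3.28 to 4.52. SERPINA14, the uterine serpin secreted by the glands, had a difference of 0.57, and its second probe set gave 1.02. Its level on day 7, 5.92 to 7.06, was far below the 11.96 to 12.75 of the day 0 pools, so it was no luteal gene in these data. The list as a whole was balanced, with 13 of 26 measured members higher and 13 lower in SE, a median of 0.01 and 0 past the threshold. In this list 4 genes had every SE pool above and 3 every SE pool below, against 9.53% and 5.68% of all genes. Genes of cholesterol and fatty acid synthesis had higher means in SE for 23 of 26, against 56.7% of all genes, with a median of 0.15 and 0 past the threshold. The desaturase FADS2 differed by 0.42 with all SE pools above, and HMGCS1, an early enzyme of the cholesterol pathway, by 0.29 with pools that overlapped and a second probe set at -0.27. The list's median was -0.00 without HE pool 1 and 0.30 without HE pool 2, so it rested on which healthy pool was compared.

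Subunits of oxidative phosphorylation, the mitochondrial chain that makes ATP, had higher means in SE for 63 of 74, where 56.7% of all genes did. Every SE pool lay above for 12 and below for 0, against 9.53% and 5.68% of all genes. Their median of 0.14 was small and 0 passed the threshold. NDUFB5 of complex I read 10.55 and 10.58 in HE and 10.94, 10.98 and 10.92 in SE (difference 0.39), and COX7A2L, which links respiratory complexes, differed by 0.39. Without HE pool 2 the median of the list was 0.00. Cytosolic ribosomal proteins were even, with 35 of 62 higher and a median of 0.01. Glycolytic enzymes were higher in 7 of 19 (median -0.04).

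Epithelial markers had lower means in SE in 18 of 18 measured members, where 43.3% of all genes did. The median was -0.29, every SE pool lay below every HE pool for 7 members (5.68% of all genes did so), and 0 passed the threshold. With each pool left out in turn the median kept its sign, from -0.38 to -0.23. E-cadherin, CDH1, the adhesion protein of epithelial contacts, read 10.77 and 11.33 in HE and 10.75, 10.24 and 10.72 in SE. Its difference was -0.48 (its second probe set -0.87), though the lowest HE and the highest SE pool differed by under 0.02. SPINT1, an inhibitor of surface serine proteases, differed by -0.46, the vesicle protein MAL2 by -0.56 and the keratin KRT7 by -0.57, the last 2 with overlapping pools. EPCAM and the protease inhibitor SPINT2, the brightest markers, differed by -0.03 and -0.19. The summed signal of the list, on the log2 scale, was 15.11 to 15.29 in HE and 14.87 to 15.16 in SE, so the sums of the groups overlapped.

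Junction genes, which share members with the epithelial list, and basement membrane genes also had mostly lower means in SE. Of 21 tight and adherens junction genes 17 had lower means in SE, with a median of -0.20 and 0 past the threshold. Every SE pool lay below for 7 and above for 1, against 5.68% and 9.53% of all genes. Besides CLDN10 and CDH1 the junction genes with lower means included CLDN4, a sealing claudin (-0.42), and JUP, plakoglobin, which ties cadherins to the cytoskeleton (-0.36). Of 13 basement membrane and laminin receptor genes 10 were lower, 4 of them in every SE pool (5.68% of all genes), with a median of -0.33. ITGB4, the hemidesmosome integrin, differed by -0.57 and the collagen receptor ITGA2, with overlapping pools, by -0.71. Without HE pool 2 this median was -0.01, and without HE pool 1 it was -0.65. Amino acid and sugar carriers were lower in 13 of 16 (median -0.24), among them SLC7A1, a carrier of arginine and lysine (-0.64), and SLC3A2, the shared heavy chain of several amino acid carriers (-0.43, with overlapping pools). On day 0 SLC7A1 differed by -0.64 as well.

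Immediate-early genes, which are switched on within minutes of a stimulus and encode AP-1 subunits, other transcription factors and feedback regulators, had lower means in SE in 23 of 27. The median was -0.35 and 4 had every SE pool below, against 5.68% of all genes. An unadjusted limma p under 0.05 was found for 6, against 2.89% of all genes, and 0 passed the threshold. The values per pool differed widely within HE. FOS read 12.12 in HE pool 1 and 5.62 in HE pool 2, against 8.57, 4.91 and 5.62 in SE. EGR1 read 10.02 and 5.26 against 5.76, 4.999 and 4.09. HE pool 1 was the highest for both, and HE pool 2 lay among the SE pools. For FOS, SE pool 1 (8.57) also stood above HE pool 2 and the other SE pools. Without HE pool 1 the list median was -0.06 and FOS was 0.75 higher in SE; without HE pool 2 the median was -0.78.

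A few members of the list had every SE pool below both healthy pools. Besides JUN, the matricellular protein CCN1 read 8.16 and 6.57 in HE and 6.45, 5.38 and 5.23 in SE (difference -1.68), and the factor KLF10 read 10.64 and 10.43 against 10.35, 9.61 and 9.61 (-0.67). In both genes SE pool 1 lay close to HE pool 2, so the separation was narrow. Without HE pool 1 the difference of CCN1 was -0.89. DUSP1, a phosphatase that switches off MAP kinases, was 11.11 in HE pool 1 and between 9.24 and 9.31 in all other day 7 pools, so its separation rested on that pool. RHOB (-0.68) and ZFP36L1 (-0.73), a decay factor for short-lived messages, overlapped between the groups. Probe sets of RHOB disagreed, with 1 of 3 at 0.02.

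**Figure D3:**
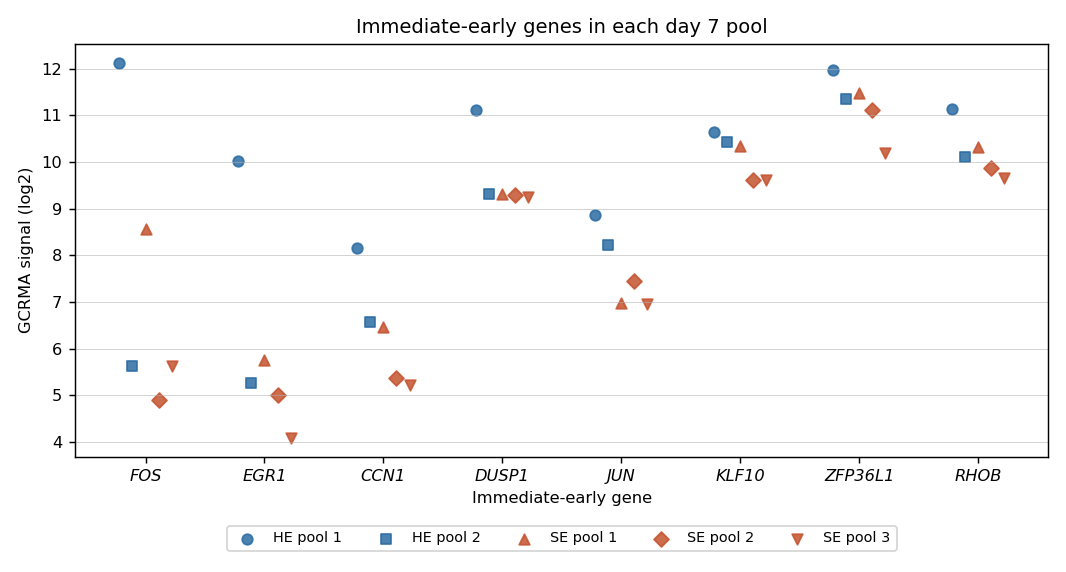
GCRMA signal on the log2 scale (y axis) of 8 immediate-early genes (x axis) in the 2 HE pools (blue) and 3 SE pools (red) of day 7, 1 symbol shape per pool. HE pool 1 is highest for all 8 genes, at 12.12 for FOS where HE pool 2 has 5.62, and JUN, CCN1, KLF10 and DUSP1 are the genes whose SE pools all lie below both HE pools.

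Since SE was defined by neutrophils in the brush, neutrophil transcripts were examined next. Of the 9 measured neutrophil markers 6 had higher and 3 lower means in SE, 0 separated the groups and the median was 0.26. The calcium-binding alarmin S100A8 read 7.996 and 5.67 in HE and 6.35, 7.94 and 7.97 in SE, S100A9 differed by 0.64 and S100A12 by 0.31. In HE pool 1 S100A8 was as high as in the highest SE pool. Without HE pool 2 the S100A8 difference became -0.58 and the list median 0.06. The granule genes MPO and ELANE and the receptor gene CXCR1 were below the filter, and no number of neutrophils was read from that. Summed, the list stood at 13.94 and 14.16 in HE and between 13.24 and 14.33 in SE on the log2 scale. Such a sum follows its brightest members most. The member with the highest mean in both groups was lactoferrin, LTF, which uterine glands also secrete (13.67 and 13.27 in HE; 13.79, 12.39 and 11.75 in SE).

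Chemokines gave no shared direction, with 8 of 16 measured cytokines and chemokines higher, 8 lower and a median of -0.00. CXCL8, the main neutrophil attractant, read 8.67 and 4.94 in HE and 8.52, 10.71 and 8.06 in SE. The difference of 2.30 was 4.92-fold (standard error 1.26, limma adjusted p = 0.999), and again HE pool 1 stood among the SE pools. CCL3, an attractant of monocytes and lymphocytes, read 5.55 and 4.61 against 6.10, 6.35 and 5.89 (difference 1.04), with no overlap. The interleukin-1 receptor antagonist IL1RN differed by 0.98 and CXCL14, a chemokine of epithelia, by 0.50, both with overlapping pools. CXCL2 and GRO1, neutrophil attractants of the same family as CXCL8, differed by -1.03 and -0.68, and by 0.78 and 0.70 without HE pool 1. A second probe set of GRO1 gave 0.042. IL1B did not reach the filter on these 5 arrays. PTGS2, the inducible prostaglandin synthase, differed by -0.29 and the oxytocin receptor OXTR by -0.42, with overlapping pools.

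Antimicrobial proteins had no shared direction. Of 10 measured, 6 had higher means in SE, and 2 did so in every pool (9.53% of all genes): LYZ2 and the beta-defensin DEFB4A. DEFB4A read 4.67 and 3.63 in HE and 4.84, 5.37 and 7.89 in SE, so most of its difference of 1.88 came from SE pool 3. LAP, the lingual antimicrobial peptide, ranged within SE alone from 2.11 to 7.64. It exceeded the filter in SE pools alone and counts among the 6 with higher means. EBD, the enteric beta-defensin, went the other way with a difference of -1.64 and overlapping pools. The list median of 0.49 was -0.03 without HE pool 2. These defensins resemble each other in sequence, and cross-hybridisation between them was not examined here.

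Sensing and complement genes mostly had lower means in SE, none past the test. TLR4, the receptor for bacterial lipopolysaccharide, read 4.83 and 5.07 in HE and 4.61, 3.85 and 3.94 in SE (difference -0.81), while NFKBIB, an inhibitor of NF-kB, had a difference of 0.48, with no overlap in either gene. Over 27 Toll-like receptor and NF-kB genes, 1 of them kept through SE pools alone, 9 were higher and 18 lower (median -0.05). CLU, a secreted chaperone that restrains complement, varied little within a group, at 12.88 and 12.94 in HE and 12.46, 12.32 and 12.48 in SE (difference -0.49, standard error 0.15, limma adjusted p = 0.999). CFB of the alternative pathway differed by -0.68 with overlapping pools. In all 9 of 12 complement genes were lower (median -0.20), a median that was 0.15 without SE pool 3. Class I presentation was lower in 12 of 16 (median -0.22), with 4 genes below in every SE pool (5.68% of all genes). ERAP1, which trims peptides for class I, differed by -1.35 but exceeded the filter in HE pools alone, and the endoplasmic reticulum chaperones CALR and PDIA3 differed by -0.44 and -0.34. B2M, the light chain of class I and among the brightest transcripts of the tissue at 14.84 to 15.46, overlapped (-0.13).

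Interferon response genes were near the background, with 19 of 35 higher in SE, a median of 0.08 and 0 past the threshold. In this list 1 gene, and in the cell cycle list 1, exceeded the filter in SE pools alone. GBP5, a guanylate-binding protein, read 4.58 and 4.36 in HE and 5.35, 5.06 and 5.13 in SE (difference 0.71), and it was also higher in every SE pool on day 0 (0.57). IFI27 (1.27) and ISG15 (0.92) had the largest differences of the list, but SE pool 3 lay below the highest HE pool in both. Of the death and survival genes, the caspase CASP6 (0.49) and the inhibitor BIRC3 (0.42, its second probe set -0.16) had every SE pool above, and 17 of 24 apoptosis genes were higher with a median of 0.07. Cell cycle (18 of 33 higher, median 0.02), unfolded protein response (12 of 25, median -0.04), heat shock (20 of 38, median 0.00), oxidative stress (22 of 36, median 0.06), MAP kinase (8 of 17, median -0.06) and nuclear pore genes (7 of 23, median -0.07) had medians under 0.1 in size. Oestrogen-responsive genes were higher in 4 of 16 (median -0.24) and matrix remodelling genes in 5 of 17 (-0.12). Mucus and secretory genes were higher in 3 of 10 (-0.23, but 0.12 without HE pool 1), adhesion molecules in 4 of 11 (-0.15, but 0.013 without HE pool 2) and the IGF system in 2 of 8 (-0.22, but 0.26 without HE pool 2). Prostaglandin and oxytocin genes were higher in 6 of 11 (0.01). In all 35 lists with at least 5 measured members 0 genes passed the threshold.

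**Figure D4:**
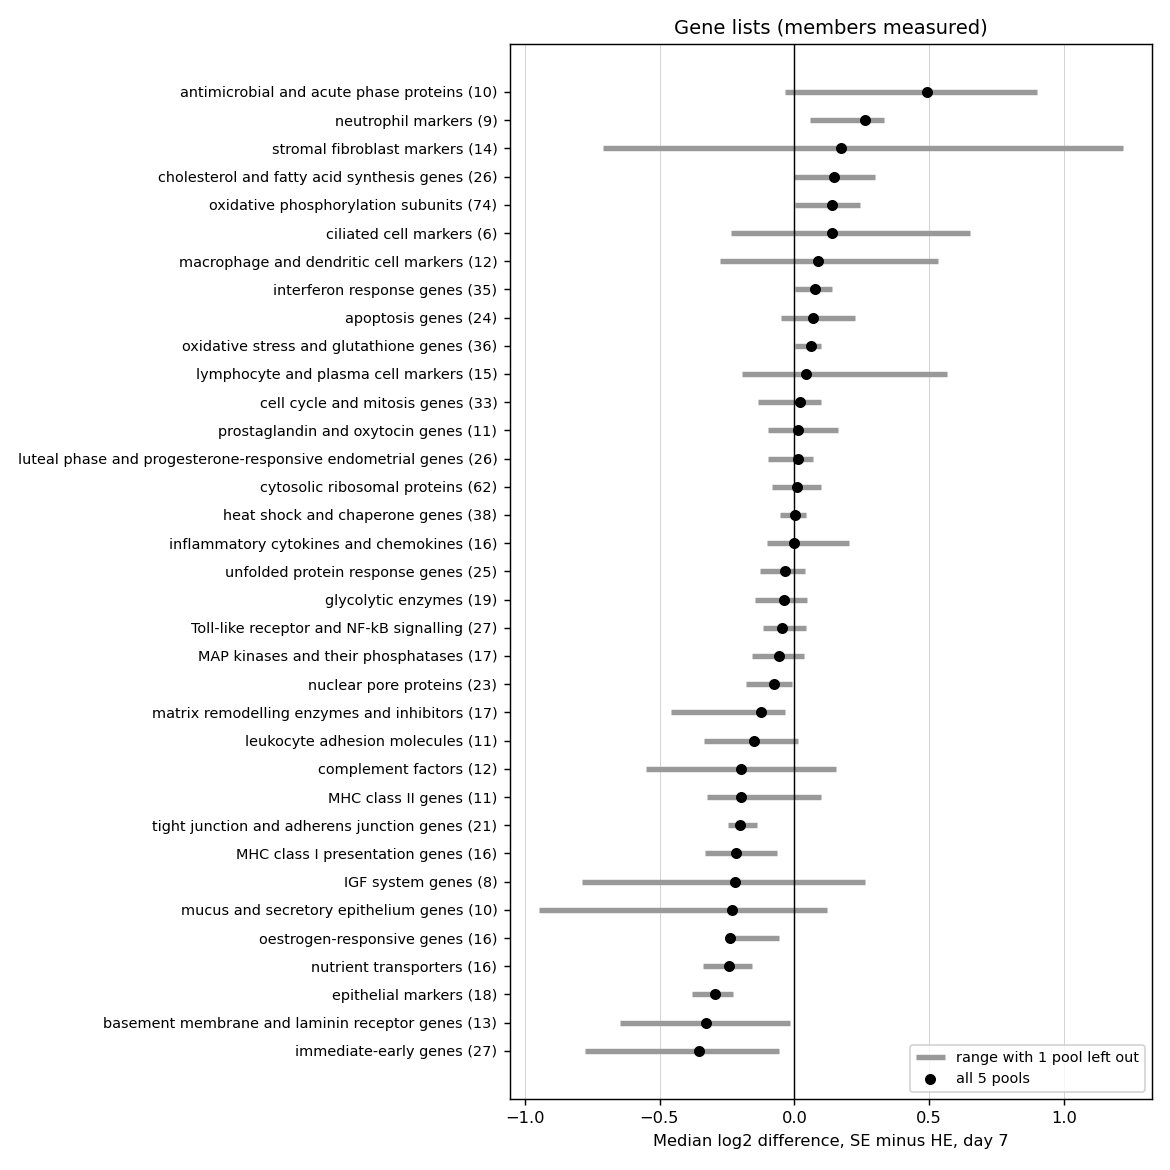
Median log2 difference SE minus HE (x axis) of each gene list with at least 5 measured members (number measured in brackets), as a black point for all 5 pools and a grey bar for the range when 1 pool at a time is left out. The bar of the epithelial markers stays below 0, from -0.38 to -0.23, while that of the stromal markers spans -0.71 to 1.22.

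Marker transcripts of stromal and immune cells differed between pools of the same group. For each gene the deviation from its mean over the 5 pools was taken, and its median over the 14 measured stromal markers was -1.19 in HE pool 1 and 0.85 in HE pool 2, and 0.94, 0.17 and -0.86 in SE pools 1, 2 and 3. HE pool 1 and SE pool 3 were thus poor in stromal transcripts. Stromal markers were higher in SE in 10 of 14 (median 0.17), macrophage markers in 8 of 12 (0.09), lymphocyte and plasma cell markers in 10 of 15 (0.04) and ciliated cell markers in 4 of 6 (0.14). Each of these 4 medians was below 0 with some pool left out: -0.71 for stromal, -0.11 for macrophage and -0.19 for lymphocyte markers without HE pool 1, and -0.23 for ciliated cell markers without HE pool 2. Summed, the stromal list stood at 12.59 and 13.46 in HE and between 12.20 and 13.53 in SE on the log2 scale. Lymphocyte and plasma cell markers varied with it, at -0.36 and 0.20 in HE and 0.67, 0.29 and -0.84 in SE, with a summed level of 11.35 and 11.93 in HE and 10.20 to 12.86 in SE. The immunoglobulin constant region probe set of IGCGAMMA read 3.12 and 9.50 in HE and 8.64, 7.53 and 2.79 in SE, and JCHAIN, which joins antibody chains in plasma cells, 9.92 and 10.78 against 12.09, 10.98 and 7.65. These are among the widest ranges of any named gene within a group and were chosen after their values were seen. Macrophage markers were lowest in SE pool 3 (-0.66), as were class II genes (-0.74). Of the 12 macrophage markers 1 exceeded the filter in SE pools alone. GNLY of cytotoxic cells (difference 0.85) and HOXA10 of the stroma (0.86, but -0.10 without HE pool 1) overlapped, as did MGP, a matrix protein of the stroma, by its brightest probe set (-0.60); its other 3 probe sets gave -0.23, -0.021 and 0.11. The part of these marker levels in the gene differences was not tested; the epithelial median was -0.23 without HE pool 1 and -0.37 without SE pool 3.

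**Figure D5:**
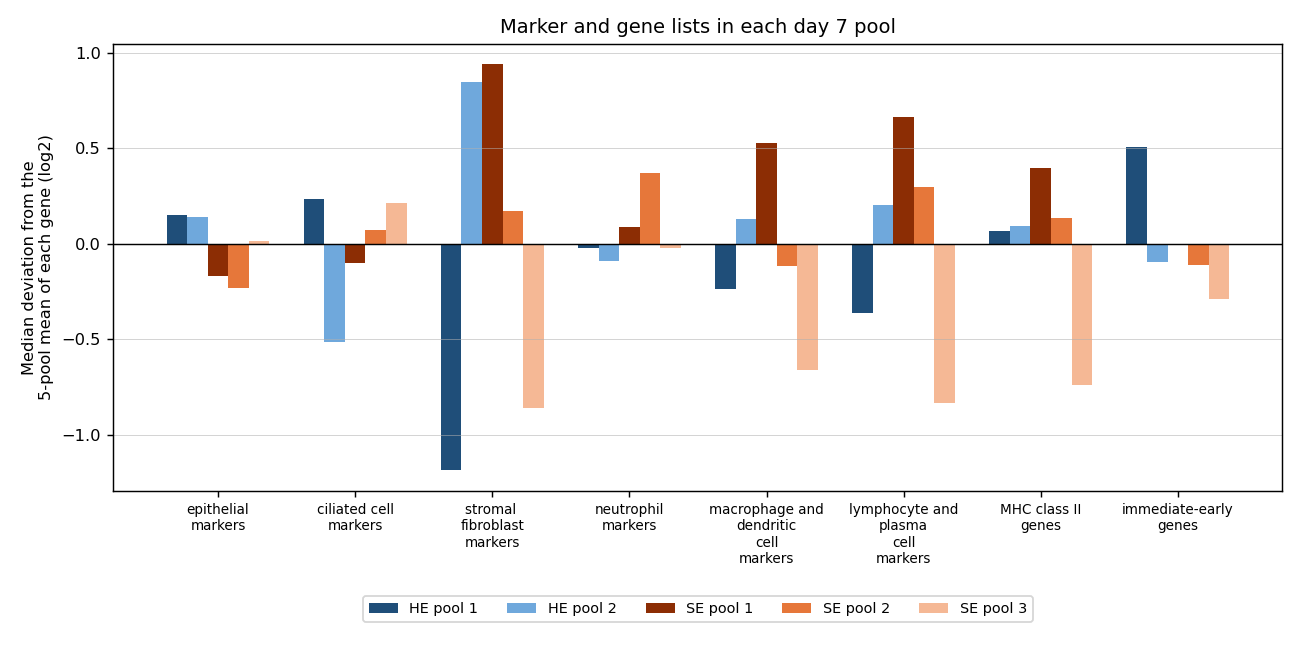
Median deviation of the members of 8 lists from each gene's mean over the 5 day 7 pools (y axis, log2), as 1 bar per pool with HE in blue and SE in brown and orange. HE pool 1 (-1.19) and SE pool 3 (-0.86) are low in stromal markers and HE pool 1 alone is high in immediate-early genes (0.51), while epithelial markers are the only list shown with both HE bars above (0.15 and 0.14) and no SE bar over 0.02.

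RNA quality was compared by the control probe sets at both ends of a transcript. For EIF4E the 3' end exceeded the 5' end by 3.91 and 3.67 in HE and by 4.14, 4.52 and 4.05 in SE, so every SE pool had the larger excess. The cyclophilin, GAPDH, actin and EF1A controls overlapped between the groups, with 1.23 and 0.85 in HE and 0.89 to 1.12 in SE for cyclophilin. The part of this in the results was not tested.

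The status contrast of day 7 was then set beside that of day 0. Across the 12680 probe sets the differences of the 2 days correlated with Pearson's r = 0.12, a description without a p since probe sets share pools and are not independent. For 174 probe sets (1.37%) the SE pools lay on the same side of all HE pools on both days, and for 112 (0.883%) on opposite sides. PSTPIP2, LYZ2, GBP5, SLC38A2 and ADAM9 belong to the former. limma called 0 of 12680 (0%) for the interaction of status and day, with 486 (3.83%) at an unadjusted p under 0.05. PDZK1, a scaffold protein of the apical membrane, had the smallest interaction p together with GPATCH2L. It differed by -2.01 on day 0 and stood at 12.87 and 13.32 in HE and 13.30, 13.35 and 13.01 in SE on day 7, a difference between the contrasts of 2.14 (limma adjusted p = 0.161). CTSC, the lysosomal protease that activates the serine proteases of neutrophil granules, was higher in every SE pool on day 0 (1.12) and lower in every SE pool on day 7 (-0.53), a difference of -1.65 (adjusted p = 0.501). The probe set of EED, a Polycomb subunit, gave -1.37 (adjusted p = 0.245), but 18 kept probe sets carry this symbol, 8 higher and 10 lower on day 7.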

How the data were processed

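Endometrial RNA pools were amplified in 2 rounds from 15 ng, biotin-labelled and hybridised to Affymetrix bovine arrays, per the labels' protocols. The authors deposited log2 signals per probe set, made by GCRMA; the submitters' processing notes name GCRMA and limma, with versions, role and order not given in the sources used here. Of 24128 probe sets 112 controls were left out. Of the others 13292 carried exactly 1 symbol in the platform annotation, 86 several and 10638 none named here; the gene numbers of 13263 were found in a RefSeq gene table, with 0 symbols updated. No genome or sequence was used here.

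The signals were analysed with R 4.3.3 and limma 3.58.1, and tables and plots came from pandas 2.3.3 and matplotlib 3.10.9 under Python 3.11.15. Probe sets with a log2 value above 4 on at least 2 of the 5 day 7 arrays were kept. All 11 endometrium arrays were fitted to 4 group means (7 residual degrees of freedom), with empirical Bayes moderation without a trend, two-sided tests and Benjamini-Hochberg adjustment at 0.05. The contrasts were SE minus HE on day 7, and that minus the same on day 0. The fitting script was tested on simulated data.

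The genes named are the 12 of smallest p in each direction, by their probe set of smallest p; in the lists described, up to 4 members of smallest p in a direction and up to 2 of the highest level; genes chosen beforehand; and the 3 of smallest interaction p in each direction. List members are measured by the kept probe set of highest mean, so JUN counts there by a probe set at -0.93. The members and lists were chosen with earlier results of these data known. LAP, MPO, ELANE, CXCR1 and the genes of widest range fall outside the rule and were chosen after their values were seen. Of the 12 with a lower mean 1 is not reported here, and the next by p, CLDN10, is given as well. Precision is limited by the number of arrays. The alternatives, each tried alone, were a filter at 5, none at all, the day 7 arrays alone, an intensity trend, robust moderation, array weights, a further quantile normalization, median centring, the mean over a gene's probe sets, the replicate number as a block, and each pool left out.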

Additional observations from a re-analysis of the deposited data

Results flagged for a closer look

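For 8 of the genes named, the SE pools lay on 1 side of all HE pools on day 7 and on the other side on day 0, and each is given by the day 7 difference minus the day 0 difference on the log2 scale. GPATCH2L (2.04), SPX (1.32), DTNBP1 (1.13), SERPINA14 (1.00) and NUP42 (0.92) were lower in every SE pool on day 0 and higher in every SE pool on day 7. DUSP1 (-1.81), CTSC (-1.65) and CDH1 (-0.85) went from higher to lower. The interaction test of limma called 0 of the 8, with GPATCH2L smallest at an adjusted p of 0.161, so that a difference between the days was not shown. Among all 12680 probe sets, 112 (0.883%) had this pattern. Several of the 8 genes were named for a small p on these same arrays, so their number cannot be set against that share. GPATCH2L, NUP42 and SPX exceeded the filter on day 7 in SE pools alone. The lowest HE and the highest SE pool of CDH1 differed by under 0.02 on day 7, and on day 7 HE pool 1 alone stood high in DUSP1 (11.11).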

How the results depend on the processing

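With the 5 pools in place, the count of probe sets past the threshold stayed at 0 except without the filter on low values, which gave 10 of 24016 (4 higher, 6 lower), 4 of them among the kept ones. PSTPIP2 was 1 of these 10 (adjusted p = 0.0312). Leaving out pools in turn gave 0 to 3 calls (1 without HE replicate 1, 3 without SE replicate 1, APOA1 among the latter at 2.13), and 0 to 2 for the interaction. Probe sets with every SE pool above numbered 1966 with no filter and 1497 to 3293 with a pool left out, and those below 1762 to 3139. With a pool left out fewer pools have to be ordered, so these counts cannot fall, and their rise is no result. With no filter the list medians were 0.019 for neutrophil markers, 0.018 for antimicrobial proteins, -0.17 for oestrogen-responsive genes and -0.029 for nutrient transporters. With array weights neutrophil markers gave 0.066, oestrogen-responsive genes -0.16 and EPCAM 0.025. Deviations from the group means correlated at -0.14 between the pools of replicate number 1 and at -0.02 for number 2. The deviations of 2 HE pools mirror each other, so these values cannot decide whether the replicate numbers pair the pools. With the replicate number as a block 0 probe sets were called for either contrast, and 2 list medians moved, cytokines to 0.15 and oestrogen-responsive genes to -0.18.

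With each pool left out in turn, list medians that moved by more than the spread between pools ran as follows: neutrophil markers 0.059 to 0.33, ciliated cell markers -0.23 to 0.65, MHC class I presentation genes -0.33 to -0.064, inflammatory cytokines and chemokines -0.10 to 0.20, antimicrobial and acute phase proteins -0.034 to 0.90, Toll-like receptor and NF-kB signalling -0.12 to 0.042, immediate-early genes -0.78 to -0.055, oestrogen-responsive genes -0.24 to -0.056, luteal phase and progesterone-responsive endometrial genes -0.10 to 0.071, prostaglandin and oxytocin genes -0.10 to 0.16. They ran likewise for matrix remodelling enzymes and inhibitors -0.46 to -0.035, tight junction and adherens junction genes -0.25 to -0.14, mucus and secretory epithelium genes -0.95 to 0.12, nuclear pore proteins -0.18 to -0.0079, oxidative stress and glutathione genes 0.0034 to 0.10, cell cycle and mitosis genes -0.13 to 0.10, oxidative phosphorylation subunits 0.0030 to 0.24, glycolytic enzymes -0.15 to 0.048, IGF system genes -0.79 to 0.26 and cytosolic ribosomal proteins -0.084 to 0.10. Differences of 14 named genes turned sign with a pool left out, over these ranges: without HE pool 2, S100A8 -0.58 to 1.75, S100A9 -0.24 to 1.53, PTGS2 -0.88 to 0.30, EED -0.14 to 0.019; without HE pool 2 or SE pool 3, S100A12 -0.87 to 1.48; without HE pool 2 or SE pool 1, OXTR -1.05 to 0.21; without HE pool 1, PDZK1 -0.10 to 0.35, FOS -5.76 to 0.75, HOXA10 -0.10 to 1.81, CXCL2 -2.84 to 0.78, GRO1 -2.06 to 0.70; without SE pool 2, EPCAM -0.13 to 0.087; without SE pool 3, BOLA-DRA -0.56 to 0.13, BOLA-DRB3 -0.61 to 0.10. The cause was not tested. The differences of the other genes that the naming rule gives kept their sign under every alternative run. The 2 HE pools limit the precision of every difference.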
